A study of Homo sapiens with 2 samples.

Results

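AP-1 is a family of transcription factors built from pairs of basic leucine zipper proteins, and the expression of its genes was compared between H2228 cells given IL4 and H2228 cells left untreated. The genes were the FOS family (FOS, FOSB, FOSL1 and FOSL2), the JUN family (JUN, JUNB and JUND), ATF3 and the small MAF genes MAFF and MAFK, 10 genes in all. They were chosen by name with earlier results of these data known, so the counts below describe these genes and do not test them. For each gene every probe set annotated to that gene alone was taken, and the one with the highest mean over both arrays stood for the gene. This gave 22 probe sets for 9 of the 19775 genes measured, and MAFK was not analysed here.

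The H2228 line comes from a human lung adenocarcinoma and carries the EML4-ALK variant 3 fusion, which both conditions therefore share. One condition received IL4, a cytokine that signals through JAK kinases and STAT6, at 100 ng/mL for 30 min according to the series design, and the other received no treatment. Each was measured on 1 Affymetrix U133 Plus 2.0 array of human transcripts, so neither a test nor an error between cultures could be given, and the number of arrays limits the precision. The sample protocol also speaks of a 48 h transfection with a plasmid for EML4-ALK, with siRNA against it or with controls, and the labels do not say whether these cells were transfected.

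FOS proteins pair with JUN proteins, and JUN proteins can also pair with each other, on a short palindrome called the AP-1 site. ATF3 belongs to the related ATF/CREB group and can pair with JUN proteins, and the small MAF proteins lack a transactivation domain and act through their partners. Many of these genes are immediate early genes, whose transcription starts after a stimulus without new protein synthesis. MAP kinases drive much of this response, through serum response factor at the FOS gene and through phosphorylation of JUN and ATF2 at the JUN gene. AP-1 is well known in lung and other epithelia for its part in growth, invasion and inflammatory gene expression.

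Expression values are on the log2 scale, and every difference is the IL4 value minus the untreated value. Genes past a 1.5-fold difference were counted in each direction. Of the 9 genes, 6 were higher with IL4 (66.7%), against 3.21% of all genes, and 0 were lower, against 4.39% of all genes. The higher genes were MAFF, ATF3, JUN, FOSL2, FOSL1 and JUND, and FOS, FOSB and JUNB were on neither side. At 2-fold, 5 of the 9 genes were higher, against 1.11% of all genes. The median log2 difference was 1.09 for the 9 genes and 0 for all genes. By the size of the increase, MAFF ranked 22, ATF3 46, JUN 81, FOSL2 128, FOSL1 186 and JUND 273 among 19775 genes.

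The only measure of error within these data is the disagreement between probe sets of a gene. Over 6056 genes with a pair of probe sets above the median level, the differences of both probe sets departed from each other with an SD of 0.25. Values under 5.03, the median over all probe sets, were called dim. The IL4 array had a median of 5.04 and the untreated array of 5.00, and the median difference over all probe sets was 0. Of 15 epithelial and lung adenocarcinoma markers, 15 lay at or above the dim level with IL4 and 15 in untreated cells. Of these 15, 1 was at least 1.5-fold higher and 1 was lower (6.67% each, against 3.21% and 4.39% of all genes). Their median difference was 0.17. The higher one was CDH1, the adhesion gene of epithelia, at 10.92 with IL4 and 10.18 in untreated cells, and the lower one was NKX2-1, the lung lineage factor, at 6.91 with IL4 and 7.88 in untreated cells. EPCAM had 11.62 with IL4 and 11.80 in untreated cells. At least 1.5-fold higher were 0 of 11 leukocyte markers, 1 of 11 fibroblast markers and 0 of 8 endothelial markers, and 0 of these were lower. The fibroblast marker was COL3A1, which was dim on both arrays at 4.45 with IL4 and 3.67 in untreated cells. COL1A1, another fibroblast marker, was not dim, at 11.23 with IL4 and 10.82 in untreated cells. On each array 4 of 11 leukocyte and 4 of 11 fibroblast markers lay at or above the dim level. So did 3 of 8 endothelial markers with IL4 and 4 of 8 in untreated cells. PTPRC, which defines leukocytes, had 2.37 with IL4 and 2.50 in untreated cells. The part of these markers in the AP-1 values was not tested.

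The bases before the start of the genes are shown because 6 of these genes were higher together, and because AP-1 genes are known to be controlled through elements close to their start. The sequences come from the RefSeq promoter table of build GRCh38.p14, which held 8 of the 9 genes measured. FOSL1 had no entry. Of 10 promoters for 8 genes, the 250 bases before the start were searched on both strands. Sites farther upstream were outside this search, so 0 matches does not mean that a gene lacks a site. The AP-1 site TGANTCA had 0 matches in these 10 promoters and occurred in 6.57% of all 35116 promoters in the table. A palindrome of TTC and GAA 4 bases apart, which STAT6 can bind, had 0 matches, against 5.38% of all promoters. The CArG box of serum response factor had 0 matches, against 1.16% of all promoters. At shares this low, 10 promoters are too few to show a lack of any of these sites. The cyclic AMP response element (CRE) TGACGTCA, a site of ATF/CREB proteins, was found in 2 of these 10 promoters, those of MAFF and JUND, and in 1.65% of all promoters. The median share of G and C in the 250 bases was 65.6% in these 10 promoters and 58% in all promoters. The shares of promoters with a site were not matched for this difference. After the sequences had been seen, the form TGACNTCA, which contains TGACGTCA, and the shorter site TGACGT, which overlaps both, were added. TGACNTCA occurred in 4 of the 10 promoters (1 each of MAFF, ATF3, JUN and JUND) and in 6.87% of all promoters. TGACGT occurred in 5 of the 10 promoters (1 each of MAFF, FOSL2, JUND, FOS and FOSB) and in 7.10% of all promoters. The added forms were chosen with these promoters in view, so their shares beside all promoters do not test an excess. All of these are matches of letters, and no binding was measured.

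The stretches below run 5′ to 3′ on the strand of the gene and end at the last base before its start. Capitals mark matches of TGACGTCA, TGACNTCA or TGACGT on either strand. The first 5 genes were higher with IL4, and FOS is shown as a gene that was not. For MAFF and ATF3, which have a pair of starts each in the table, the upstream start is shown, because the other start had no match.
MAFF, chr22:38201894-38201993, plus strand, 100 bases: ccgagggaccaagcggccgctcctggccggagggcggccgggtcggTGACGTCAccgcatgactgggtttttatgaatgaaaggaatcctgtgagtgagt
ATF3, chr1:212565267-212565406, plus strand, 140 bases: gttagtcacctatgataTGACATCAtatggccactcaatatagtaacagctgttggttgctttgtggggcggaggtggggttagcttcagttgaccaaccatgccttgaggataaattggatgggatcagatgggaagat
JUN, chr1:58784048-58784147, minus strand, 100 bases: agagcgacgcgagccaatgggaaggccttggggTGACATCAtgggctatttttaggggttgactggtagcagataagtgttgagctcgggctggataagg
FOSL2, chr2:28392758-28392857, plus strand, 100 bases: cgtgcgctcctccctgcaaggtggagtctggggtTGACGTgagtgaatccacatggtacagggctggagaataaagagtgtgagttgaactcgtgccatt
JUND, chr19:18281623-18281832, minus strand, 210 bases: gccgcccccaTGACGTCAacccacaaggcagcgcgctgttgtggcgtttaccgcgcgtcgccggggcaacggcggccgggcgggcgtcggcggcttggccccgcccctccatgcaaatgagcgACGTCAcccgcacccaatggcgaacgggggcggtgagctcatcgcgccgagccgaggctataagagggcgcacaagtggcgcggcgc
FOS, chr14:75278728-75278827, plus strand, 100 bases: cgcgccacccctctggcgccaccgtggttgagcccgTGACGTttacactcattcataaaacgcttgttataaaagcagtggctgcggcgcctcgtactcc

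In MAFF the match lay 54 to 47 bases before the start, in JUN 67 to 60 bases and in ATF3 123 to 116 bases. The JUN and ATF3 matches had the same letters, TGACATCA. FOSL2 and FOS carried the shorter site at nearly the same distance, 66 to 61 and 64 to 59 bases before the start. JUND had the full element 200 to 193 bases before the start and a TGACGT on the other strand 87 to 82 bases before it. The 4 genes with TGACNTCA, a form added after the sequences were seen, were past 1.5-fold on the probe sets that stand for them. Of the 5 genes with TGACGT, FOS and FOSB were not past it. FOS was dim on both arrays and FOSB in untreated cells, so their differences were read at that limit. JUNB, with no match to any of these letters, was not past 1.5-fold either. Whether a match goes with the difference was not tested.

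The FOS family divided into genes that were higher with IL4 and genes that were not. FOS, the founding member and the classical immediate early gene, gave 4.66 with IL4 and 5.02 in untreated cells on its 1 probe set, a difference of -0.36 on the log2 scale. FOSB, a close relative of FOS that also carries a transactivation domain, had 5.05 with IL4 and 4.92 in untreated cells, a difference of 0.13. FOS was dim on both arrays and FOSB in untreated cells, so both were read at the limit of what is called dim here. FOS lies at chr14:75278828-75282230 and FOSB at chr19:45467996-45475179.

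FOSL1 and FOSL2 encode FRA1 and FRA2, FOS proteins without the strong transactivation domain of FOS. FOSL1, at chr11:65892049-65900545, had 10.35 with IL4 and 9.26 in untreated cells, which is 2.13-fold higher. It had 1 probe set, so no second reading of this difference was available. FOSL2, at chr2:28392858-28417317, had 5 probe sets, and all 5 were higher with IL4. The FOSL2 probe sets 225262_at and 228188_at read 9.25 and 9.14 with IL4, against 7.96 and 7.93 in untreated cells. The first, 2.44-fold higher with a difference of 1.29, stands for the gene, and the second was 2.30-fold higher. The FOSL2 probe set 218880_at had a lower level, 6.39 with IL4 and 5.19 in untreated cells. The increase on it was 2.29-fold. The probe sets 205409_at and 218881_s_at were dim in untreated cells and had FOSL2 differences of 0.31 and 0.43. FOSL2 thus passed 1.5-fold on the 3 probe sets that lay above the dim level on both arrays and on neither of the others.

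Among the genes with several probe sets, JUN had the most uniform increase. JUN encodes c-Jun, the main partner of FOS proteins and the target of JUN N-terminal kinases, and lies at chr1:58780791-58784047. Its probe set 201464_x_at had 11.36 with IL4 and 9.86 in untreated cells, a difference of 1.505 or 2.84-fold. The JUN probe set 201466_s_at had 9.41 with IL4 and 7.39 in untreated cells, a difference of 2.02. The probe sets 201465_s_at and 213281_at gave JUN differences of 1.36 and 1.49. All 4 probe sets were above the dim level on both arrays, and their differences averaged 1.60 ± 0.29 (SD, n = 4 probe sets of the same arrays).

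The other JUN genes changed less. JUNB, which encodes a JUN protein of weaker transactivation that can restrain c-Jun, had 7.12 with IL4 and 6.75 in untreated cells on its 1 probe set. Its difference of 0.38, or 1.30-fold, was under the 1.5-fold level, and JUNB ranked 1523 among all genes. JUND, which is broadly expressed in resting cells, had 10.67 with IL4 and 9.75 in untreated cells on probe set 203752_s_at, which is 1.88-fold higher. This JUND increase rested on that probe set. The JUND probe set 203751_x_at had 5.35 with IL4 and 4.92 in untreated cells, a difference of 0.43, and the dim probe sets 229117_s_at and 214326_x_at had differences of -0.19 and 0.11. Averaged over its 4 probe sets the difference of JUND was 0.32, under 1.5-fold. JUNB lies at chr19:12791486-12793315 and JUND at chr19:18279694-18281622.

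ATF3, a stress-induced member of the ATF/CREB group, had the second largest increase of the 9 genes and the least agreement among its probe sets. The ATF3 probe set 202672_s_at had 7.07 with IL4 and 5.30 in untreated cells, a difference of 1.77 or 3.41-fold. The ATF3 probe set 1554980_a_at had 6.40 with IL4 and 5.75 in untreated cells, a difference of 0.66 or 1.58-fold. Their means over both arrays were 6.19 and 6.08, so the choice of the first to stand for the gene rested on a narrow margin. The probe set 1554420_at was dim on both arrays and had an ATF3 difference of -0.0083. The probe sets of ATF3 differed in size more than those of JUN, with an SD of 0.90 over 3 probe sets, and those above the dim level both passed 1.5-fold. ATF3 lies at chr1:212565407-212620777.

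MAFF had the largest increase of the AP-1 genes. The small MAF protein MAFF pairs with CNC proteins such as NFE2L2 or with other AP-1 proteins, and its gene lies at chr22:38201994-38216511. The MAFF probe set 36711_at had 10.09 with IL4 and 7.77 in untreated cells, a difference of 2.31 or 4.98-fold. The MAFF probe set 205193_at had 7.44 with IL4 and 6.23 in untreated cells, a difference of 1.22 or 2.32-fold. Both probe sets of MAFF were above the dim level on both arrays and past 1.5-fold, but they disagreed in size by more than the SD of 0.25 between probe sets of a gene.

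Taking all probe sets, 14 of the 22 lay above the dim level on both arrays, and 13 of these 14 were at least 1.5-fold higher with IL4, against 4.29% of the 22416 probe sets of a single gene at that level. The exception was the single probe set of JUNB. These 14 probe sets belong to 7 genes, of which 6 were higher. Probe sets of a gene read the same gene on the same arrays and do not count as separate genes. Among all 22, 19 were higher with IL4 by any amount, against 46.7% of all 41091 probe sets of a single gene, and 3 were not, namely those of FOS, 1 of JUND and 1 of ATF3. These 3 were dim on both arrays. A property that the choice of genes did not use was their length in the genome. Of the 9 genes, 6 spanned under 10000 bases, against 27.5% of all measured genes, and the median span was 7184 bases for the 9 genes and 24739 bases for all measured genes.

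**Figure D1:**
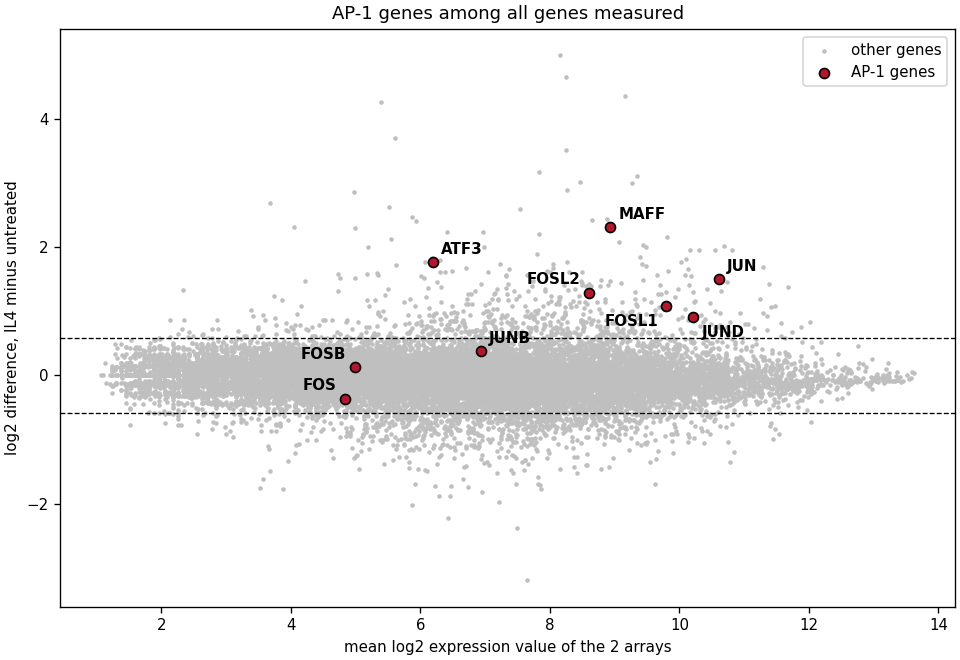
The y axis gives the log2 difference, IL4 minus untreated, and the x axis the mean log2 value of both arrays, for the 9 AP-1 genes (red) and the rest of the 19775 genes (grey). Dashed lines mark 1.5-fold, and 6 red points lie above the upper line, from JUND at 0.91 to MAFF at 2.31, with none below the lower line.

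Other genes around AP-1 were described from lists by the same 1.5-fold level. These lists were also chosen with earlier results of these data known, so their counts describe the lists and do not test them. The remaining basic leucine zipper genes, which include the partners that AP-1 proteins can choose among, held 0 of 33 higher genes, against 3.21% of all genes. Lower were 2 of 33 (6.06%, against 4.39% of all genes), and the median difference was 0.067. BATF3, which pairs with JUN proteins, had 6.59 with IL4 and 6.10 in untreated cells, a difference of 0.50. BATF had 7.10 with IL4 and 7.35 in untreated cells, and JDP2, a repressor that pairs with JUN, had 7.64 with IL4 and 7.67 in untreated cells. MAFG, another small MAF gene, had 9.42 with IL4 and 9.18 in untreated cells, which is 1.19-fold higher. The MAF partners NFE2L2, the oxidative stress factor, and BACH1, its repressor, had differences of -0.17 and 0.067. The lower genes were DBP, a circadian factor, at 4.75 with IL4 and 5.76 in untreated cells, and NFE2, which was dim on both arrays and is named after its value was seen. On its probe set of a single transcript DBP had a difference of -0.31, under 1.5-fold. CREB5, a relative of ATF2 that is also named after its values were seen, was just under the level at 0.58 on the probe set that stands for it. Its 4 probe sets ranged from 0.58 to 2.75, and with their mean, 1.53, it was 1 of 33 higher.

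The MAP kinase cascade held 1 of 34 higher and 1 of 34 lower genes (2.94% each), against 3.21% and 4.39% of all genes. Its median difference was 0.017. MAPK8 and MAPK9, which encode JUN N-terminal kinases, had differences of 0.25 and -0.29, and MAPK3, which encodes ERK1, had -0.18. MAP3K14, the NF-kB inducing kinase, was 1.84-fold higher, with 7.86 with IL4 and 6.98 in untreated cells. MAP2K6, an activator of p38, was 1.70-fold lower on the probe set that stands for it, but its other probe set was higher by 0.023. The arrays measured mRNA and did not measure kinase activity or phosphorylation of JUN.

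Of 21 phosphatases and feedback inhibitors of the cascade, 6 were higher (28.6%, against 3.21% of all genes) and 1 was lower (4.76%, against 4.39% of all genes). Their median difference was 0.21. DUSP1, the phosphatase that inactivates JUN N-terminal kinases and p38 and is itself an immediate early gene, had 9.87 with IL4 and 7.44 in untreated cells, which is 5.38-fold higher. Its 3 probe sets were all higher, by 0.13 to 2.43, with a mean of 1.12 and a median of 0.81. DUSP5, a nuclear ERK phosphatase, was 2.67-fold higher, with 9.21 with IL4 and 7.79 in untreated cells. SPRY2 and the EGF receptor inhibitor ERRFI1 were 3.07-fold and 2.09-fold higher. SPRY1 was 3.51-fold lower, opposite to its relative SPRY2, and had a difference of -1.11 when its probe sets were averaged.

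Of 13 genes in a list of serum response factor, its cofactors and related transcription factors, 4 were higher and 1 was lower. These were 30.8% and 7.69%, against 3.21% and 4.39% of all genes. The median difference of the 13 genes was 0.31, and on probe sets of single transcripts 1 of 10 was higher. SRF, which drives FOS transcription through the CArG box, had 7.51 with IL4 and 6.18 in untreated cells. SRF was thus 2.50-fold higher, while FOS, which was dim on both arrays, was not past 1.5-fold. Averaged over its 2 probe sets, which read 0.26 and 1.32, the SRF difference was 0.79. ETS1 was 3.88-fold higher, FHL2, a coactivator of AP-1, 1.97-fold higher and MEF2C 1.84-fold higher, whereas ELK1, the ternary complex factor that MAP kinases phosphorylate, had a difference of -0.024. MEF2C was under 1.5-fold with the mean over its probe sets, 0.53, with their median, 0.47, and on its probe set of a single transcript, 0.25. MRTFB was 1.61-fold lower on the probe set that stands for it, but 4 of its 5 probe sets were higher.

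Immediate early genes outside the AP-1 family moved in both directions. Of 43 genes, 13 were higher (30.2%, against 3.21% of all genes) and 6 were lower (14.0%, against 4.39% of all genes). The median difference was 0.44. CCN2 and CCN1, matricellular protein genes, were 4.59-fold and 3.23-fold higher, EDN1, which encodes endothelin 1, was 3.08-fold higher and LIF was 3.07-fold higher. MYC had 10.81 with IL4 and 9.87 in untreated cells, which is 1.92-fold higher. EGR1, which like FOS is controlled by serum response factor, had 8.09 with IL4 and 8.29 in untreated cells, and its 3 probe sets were all lower by some amount. The largest decreases were in KLF9, at 2.41-fold, the inhibitor genes ID2 and ID1, at 2.16-fold and 1.99-fold, and HES1, at 2.15-fold. KLF9 was higher on 2 of its 5 probe sets, and its mean over them, -0.56, was under 1.5-fold. HES1 had a difference of 0 on its probe set of a single transcript, and on such probe sets 2 of 32 immediate early genes were lower.

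Genes known as AP-1 targets in other systems, a list also chosen with earlier results of these data known, were more often higher than lower. Of 51 targets, 15 were higher (29.4%, against 3.21% of all genes) and 1 was lower (1.96%, against 4.39% of all genes). Their median difference was 0.30. The largest increases were in the chemokine genes CCL2 and CXCL8, at 25.2-fold and 20.4-fold, HBEGF, a ligand of the EGF receptor, at 11.4-fold, and LOX, the collagen crosslinking enzyme, at 4.05-fold. The 4 HBEGF probe sets ranged from -0.23 to 3.52, with a mean of 1.65. MMP1, a collagenase gene with a well-studied AP-1 site, was on the other side. It had 8.17 with IL4 and 9.01 in untreated cells, which is 1.79-fold lower. Many of these genes have promoters that also bind NF-kB or other factors, and AP-1 binding was not measured. When only probe sets of single transcripts were read, 6 of 35 targets were higher. Of 16 genes of AP-1 stability and cofactors, 1 was higher (6.25%, against 3.21% of all genes), JMJD6, at 1.60-fold, and 0 were lower. The JMJD6 difference was 0.42 with the mean over its probe sets, under 1.5-fold.

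The choice of probe set was the part of the processing that moved the AP-1 values most. MAFF, JUN, FOSL1 and FOSL2 stayed past 1.5-fold in every alternative run, which replaced the probe set, the normalization or the level correction. JUND was under the level with the mean or the median over probe sets, at 0.32 and 0.27. JUND had no value on probe sets specific to a single transcript, since all 4 of its probe sets can bind several. ATF3 was under the level on such probe sets, since its 1 such probe set was dim on both arrays. For FOS, FOSB and JUNB none of these alternatives brought a difference past 1.5-fold. FOS, FOSB, JUNB and FOSL1 have 1 probe set each, so the choice among probe sets could not move them.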

How the data were processed

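The log2 values deposited by the authors, 1 per probe set and array, came from Affymetrix U133 Plus 2.0 arrays of IL4-treated and untreated H2228 cells, 1 array each. The submitters' processing notes name RMA, with no version, and the methods name GCOS 1.4 for raw data. Background correction could not be repeated, since scanner files were not used here. Of 54675 probe sets, 41091 had 1 gene in the array annotation, and 41037 of these were brought to the RefSeq symbol of GRCh38.p14 by gene number. Each gene was read from the probe set whose mean over both arrays was highest. Genes past 1.5-fold were counted, with no test. The AP-1 genes and the lists were chosen with earlier results of these data known. Named genes were all AP-1 genes, up to 4 increases and 4 decreases past 1.5-fold per list with at least 1 array at or above the median level (2 of each where neither direction had more), and fixed partners and regulators. Some of these are not analysed here. The protein comparison that had been planned was not made. Counting and the motif search were tested on simulated data. Alternatives were a 2-fold level, a floor at the median, the mean or median of probe sets, probe sets of single transcripts, loess (fraction 0.3), quantile normalization and centring. Python 3.11.15, numpy 2.4.6, pandas 2.3.3, statsmodels 0.14.6 and matplotlib 3.10.9 were used.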

Additional observations from a re-analysis of the deposited data

How the results depend on the processing

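The count of AP-1 genes at least 1.5-fold higher with IL4, 6 of 9, was 6 with loess, quantile normalization, centring or the floor, 5 at 2-fold and with the mean or the median over probe sets, and 4 of 8 on probe sets of single transcripts. The count of lower genes was 0 in each. The median log2 difference, 1.09, became 0.81 with the mean over probe sets, 0.66 with their median and 0.73 on probe sets of single transcripts. On the same probe sets ATF3 had -0.0083, MAP2K6 0.023, and HES1 and COL3A1 had 0. MRTFB had 0.082 with the mean over probe sets and 0.25 with their median. Most of the AP-1 genes' single values, 52 of 60, moved by less than 0.25. Some of these could not move. Centring subtracted a median difference of 0, and the floor changed no value that it kept. A gene with 1 probe set has the same value under the mean and the median. No replicate could be left out, and dim values limit FOS and FOSB.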

Other observations

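Of 54675 probe sets, 4528 (8.28%) had exactly the same value in both arrays, 854 of them at or above the median level. None of the 22 AP-1 probe sets did, so the count for these was 0. The origin of the equal values was not tested.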
